A study of Mus musculus with 4 samples.

Results

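The posterior HoxA genes Hoxa6, Hoxa7, Hoxa9, Hoxa10, Hoxa11 and Hoxa13 were examined as a stretch of chromatin, in terms of which DNA touches which. The data came from Micro-C, an assay that digests fixed chromatin down to nucleosomes with micrococcal nuclease and joins the ends that lie close together, so that each sequenced junction reports a contact between a pair of genomic positions. Contacts were counted between 8 kb bins. A pair of bins belonged to the set if one bin overlapped 52190000 to 52262000 on chromosome 6 (GRCm38) and the other lay in 52190000 to 53000000. This gave 975 possible pairs, 55 of them inside the block of 10 bins (52184001 to 52264000) and 920 from the block to its downstream flank. Of these, 690 were among the 23095428 pairs listed for ESCs and 558 among the 21005697 listed for MNs.

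The mouse ESC line E14 was kept in LIF and 2i medium, and MNs were derived from it through embryoid bodies patterned with retinoic acid and a smoothened agonist, a regimen that the study uses for cervical MNs. Each cell state was taken from WT cells and from PATZ1 KO cells, which carry a CRISPR/Cas9 knockout of Patz1 made in E14 cells and grown from single clones. Which clone was used is not given in the sources used here, and contacts do not report expression, so the identity of the MNs could not be checked against marker genes. There was 1 library in each of the 4 groups, hence no replicates and no test: each interval below is a 95% counting interval, which leaves out the spread between cultures.

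Hox genes encode homeodomain transcription factors that give cells along the body axis their position. Their order on the chromosome follows the order of the body regions in which they act, so that Hoxa6 and Hoxa7 work at more anterior levels than Hoxa9 and Hoxa10, and Hoxa11 and Hoxa13 are also central to limb patterning. In differentiating MNs the cluster is divided into an active anterior and a Polycomb-repressed posterior part, and CTCF, a zinc finger protein that halts cohesin, sits between them. PATZ1, a POZ-domain zinc finger protein, was studied as a further insulation factor at the border between Hoxa7 and Hoxa9, written Hoxa7|9. Per the study, cervical MNs were made to form a border between Hoxa5 and Hoxa6, and thoracic MNs to form the more caudal Hoxa7|9. The comparison of WT with PATZ1 KO asks whether contacts at Hoxa7|9 depend on PATZ1. That of MNs with ESCs asks how these contacts differ between the cell states.

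The members are all on the minus strand and start, by their principal transcript, in different bins: Hoxa6 (52206288 to 52208722) in the bin 52208001 to 52216000, Hoxa7 (52214491 to 52221854) in 52216001 to 52224000, Hoxa9 (52223100 to 52231089) in 52224001 to 52232000, Hoxa10 (52231197 to 52240854) in 52232001 to 52240000, Hoxa11 (52242106 to 52245810) in 52240001 to 52248000 and Hoxa13 (52257694 to 52260880) in 52256001 to 52264000. The midpoint between the Hoxa7 and Hoxa9 gene bodies falls into the bin that also holds the Hoxa7 start, called the border bin. The interval of the rule reaches further to the anterior side than Hoxa6, so the block also takes in Hoxa5, Hoxa4 and part of the long Hoxa3 annotation.

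Sequence elements of the kinds bound by the studied proteins were looked up in the mm10/GRCm38 reference. The core of the CTCF motif, with its common alternatives, and the G-rich element GGGGAGGGG, of the kind described for PATZ1 and MAZ, were searched on both strands. The block held 6 matches to the CTCF core, all on the minus strand, in 4 of 10 bins, where 28.9% of the 18293 bins of chromosome 6 held one. It held 12 matches to the G-rich element in 7 of 10 bins (33.4% of the bins of chromosome 6), 2 on the plus and 10 on the minus strand. The windows shown here were chosen to give matches in the border bin and on either side of it. On its anterior side is the nearest CTCF pattern (chr6:52211273-52211302, an intron of Hoxa3). In the border bin are its only CTCF pattern (chr6:52221800-52221829) and 1 of its 2 G-rich matches (chr6:52217738-52217766). Both lie within the annotated span of Hoxa7, upstream of its principal start. On the posterior side is 1 of 3 CTCF patterns in the Hoxa11 bin (chr6:52245975-52246004, an exon of Hoxa11os). Each is read 5′ to 3′ on the minus strand, with the matched letters in capitals; a match is no evidence of binding.
anterior CTCF pattern: aaggcagctCCAGGAGAGGGCtggtaactg
border CTCF pattern: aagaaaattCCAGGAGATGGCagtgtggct
posterior CTCF pattern: tgttgcttcCCCTGAGGTGGCtacaaagaa
border G-rich element: gaggttgtcgGGGGAGGGGgcgagatccc

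The libraries held 110991835 to 170946673 contacts in the listed pairs, with more in WT than in PATZ1 KO for ESCs and more in PATZ1 KO than in WT for MNs. The deposited columns carry only numbers, and number 1 was read as WT and number 2 as PATZ1 KO from the name of the comparison. The read numbers that the study lists rank the libraries of each state the other way round from these sums, so the reading is an assumption, and every KO over WT sign below turns if it is wrong. At Patz1 itself, the bin with the gene start (chromosome 11, 3288001 to 3296000) had 3.29 (WT) and 2.49 (PATZ1 KO) of every 1000000 listed contacts for ESCs and 3.42 and 1.93 for MNs, although both other Patz1 bins were also lower in PATZ1 KO MNs (3.77 and 3.79 against 5.22 and 5.36) and higher in PATZ1 KO ESCs (4.90 and 4.85 against 4.32 and 4.60). Each value below is the number of contacts over the number expected, the mean of all possible pairs at the same distance on chromosome 6 in the same library. The ESC and MN lists were made separately, and a pair missing from a list was counted as 0.

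Contact across the Hoxa7|9 border was lower in MNs than in ESCs in both genotypes. It was measured in the 16 pairs that join the 4 bins before the border bin (Hoxa4 to Hoxa6) with the 4 bins after it (Hoxa9 to Hoxa11). These pairs held 314 and 333 contacts in WT and PATZ1 KO ESCs, and 87 and 74 in WT and PATZ1 KO MNs, or 1.14 (1.02 to 1.27), 1.31 (1.18 to 1.46), 0.479 (0.384 to 0.591) and 0.392 (0.308 to 0.492) times the expected number. Both ESC libraries were above and both MN libraries below the expected number, and the intervals of the cell states did not overlap, whichever column is read as WT. Each of the 16 pairs had a lower value in both MN libraries than in both ESC libraries, counting the 1 pair that the MN list lacks as 0. No share of all autosomal pairs is given for this count. The log2 ratio of MNs over ESCs was -1.25 (-1.61 to -0.90) in WT, which is 2.38-fold lower, and -1.74 (-2.13 to -1.38) in PATZ1 KO, which is 3.35-fold lower. Pairs of the bins up to that of Hoxa5 also span the place between Hoxa5 and Hoxa6. Among the 16 pairs, those of the Hoxa6 bin had -0.62 (-1.18 to -0.075) in WT and -1.42 (-2.03 to -0.84) in PATZ1 KO. The border bin with the posterior bins beyond its neighbour had -0.11 (-0.67 to 0.44) in WT and -0.84 (-1.45 to -0.27) in PATZ1 KO. How much of the fall belongs to either border was not tested.

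**Figure D1:**
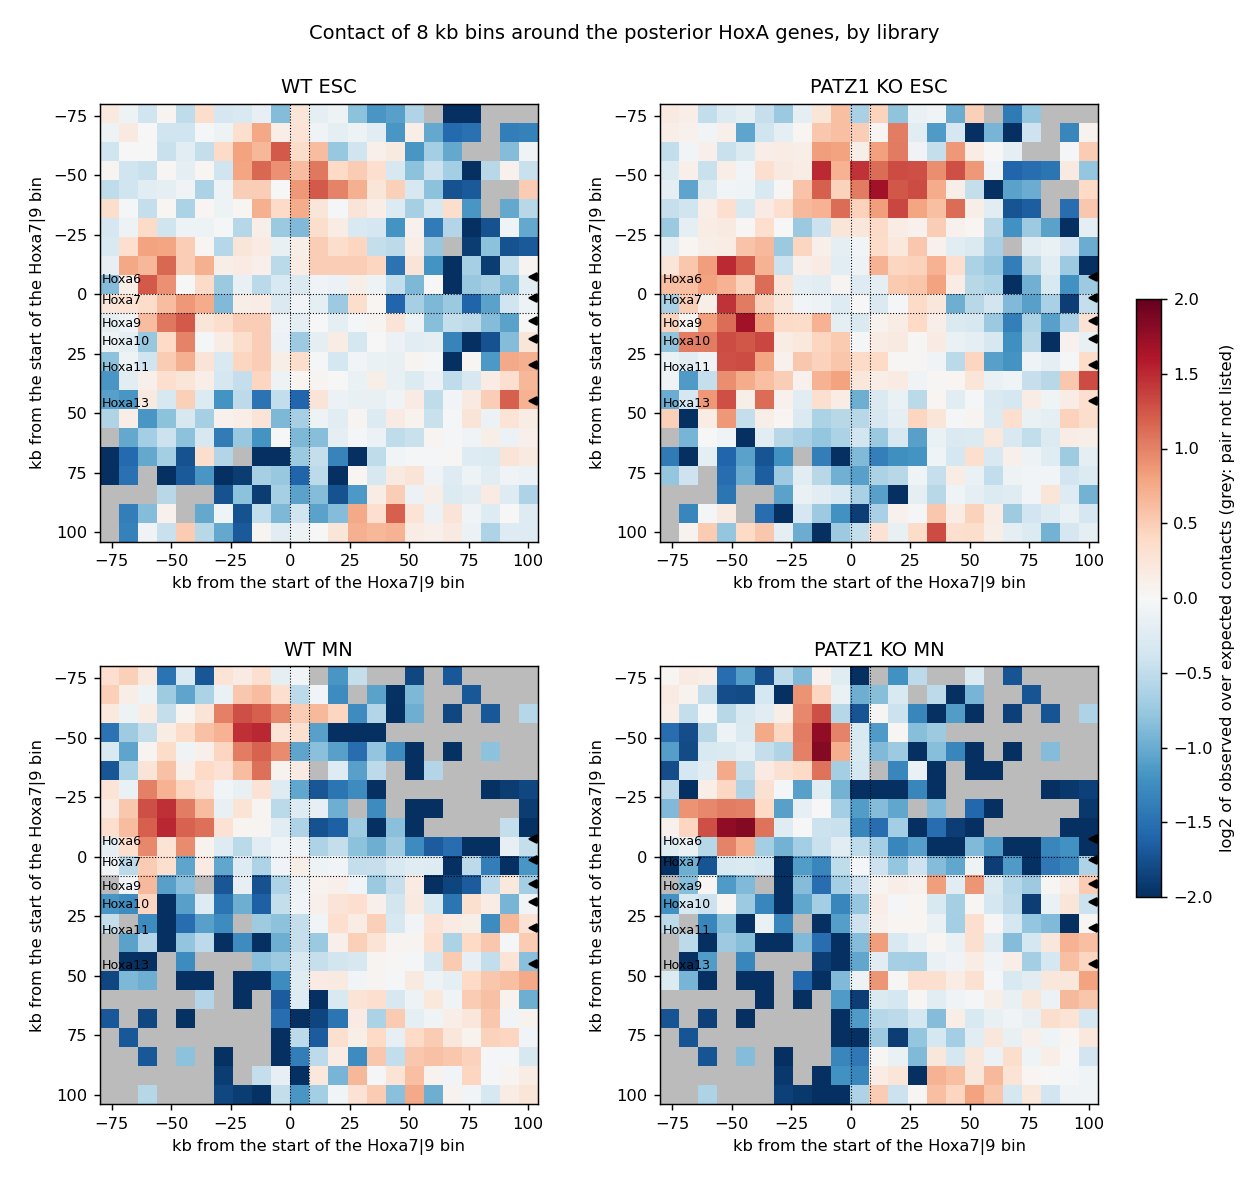
Each square is a pair of 8 kb bins, placed by its distance in kb from the start of the border bin on both axes, and its colour is the log2 of observed over expected contacts in that library, with the scale ending at -2 and 2 and grey for pairs not listed. Dotted lines frame the border bin and triangles mark the gene starts. In both MN libraries the 16 squares that join the 4 bins before the border bin with the 4 bins after it are blue or grey, whereas in both ESC libraries the squares next to the border are near or above 0.

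Between PATZ1 KO and WT, contact across the border differed by less than the counting error in both states, a call that depended on the setting. In ESCs the border had a log2 ratio of 0.20 (-0.02 to 0.43), PATZ1 KO relative to WT, and in MNs one of -0.29 (-0.76 to 0.18), so that a rise of up to 0.43 in ESCs and a fall of up to 0.76 in MNs remain within the intervals. With the expected number taken from all autosomes the ESC ratio was 0.25 (0.028 to 0.48), and with the border bin counted with the Hoxa9 side the MN ratio was -0.45 (-0.79 to -0.12), both with intervals that leave out 0. Among all autosomal bins with at least 20 contacts across them on average, 85.9% had a lower ratio than the border bin in ESCs and 23.0% in MNs, shares that would count the higher bins if the columns were exchanged. The MN over ESC ratio of the border bin lay far out by the same measure, with 0.0490% of 287650 bins lower in WT and 0.00278% of 287583 bins lower in PATZ1 KO. At some neighbouring bins of the block the interval did leave 0, upward in ESCs and downward in MNs. The Hoxa9 bin had 0.36 (0.12 to 0.60) in ESCs and -0.46 (-0.89 to -0.027) in MNs, and the bin with Hoxa5 had 0.31 (0.090 to 0.53) and -0.45 (-0.83 to -0.066). The Hoxa6 bin was at 0.14 (-0.089 to 0.36) in ESCs and at -0.51 (-0.97 to -0.049) in MNs.

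Set beside the other positions of the cluster, the dip of the MN libraries was centred on the Hoxa6 to Hoxa9 starts. In WT MNs the border bin had the lowest value of all positions from 48 kb before to 128 kb after it, with a log2 of observed over expected contacts of -1.06. The bin before it, which holds the Hoxa6 start, was at -0.90 and the bin after it, which holds the Hoxa9 start, at -0.76. In PATZ1 KO MNs the same 3 bins were at -1.35, -1.41 and -1.22, so the lowest position there was the Hoxa6 bin. These ranks rest on small differences, with 87 and 97 contacts across the border and Hoxa6 bins in WT MNs and 74 and 71 in PATZ1 KO MNs. The squares of these bins share pairs, and a shift of the lowest position was not tested. Contact across the bin of Hoxa4, in contrast, was high in both, at 0.87 in WT and 0.79 in PATZ1 KO MNs, and contact across the Hoxa13 bin was near the expected number, at -0.10 in both. The ESC profiles declined from 0.61 in WT and 0.78 in PATZ1 KO at Hoxa4 to -0.38 and -0.26 at Hoxa13 with no dip at the border.

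**Figure D2:**
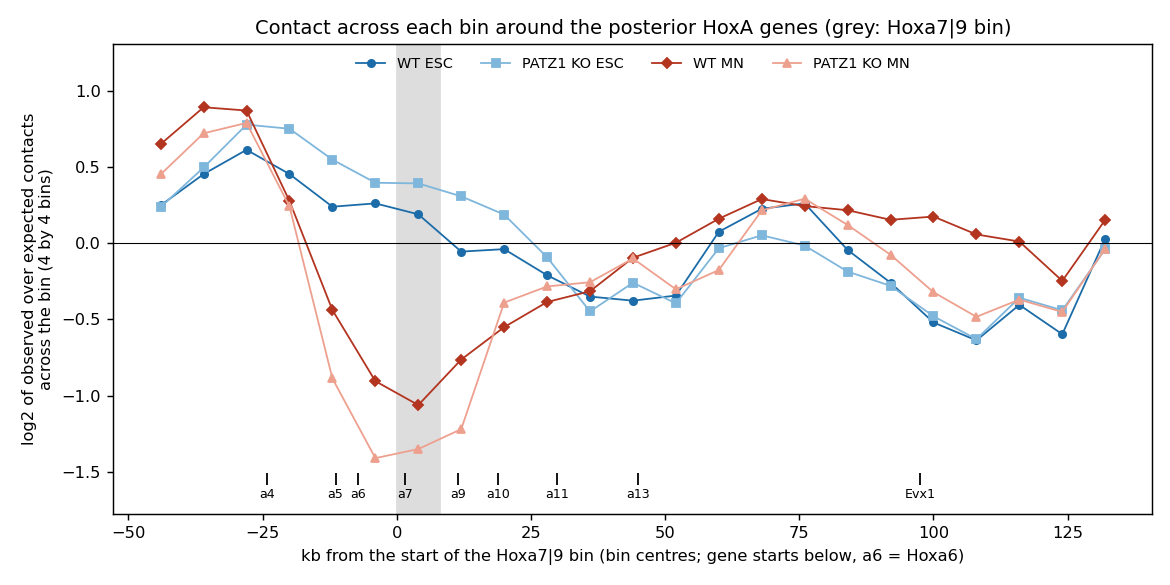
Points give, for each bin along the posterior HoxA genes and the start of their flank (x axis, kb from the start of the border bin), the log2 of observed over expected contacts in the square of 4 by 4 bins across it (y axis), with a line for each library, the border bin in grey and gene starts as ticks. The MN libraries reach -1.06 (WT) and -1.35 (PATZ1 KO) at the border bin, where the ESC libraries are at 0.19 and 0.39.

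Of the 10 bins of the block, 4 had contact across them more than 1.5-fold lower in WT MNs than in WT ESCs (6.03% of all autosomal bins did), and the same 4 were so in PATZ1 KO (2.52% of all bins). These are the border bin, the pair of bins before it and the Hoxa9 bin, and since their squares share pairs of bins they are not separate measurements. No block bin was higher by that fold (4.67% of all bins in WT, 1.85% in PATZ1 KO). No block bin passed 1.5-fold between PATZ1 KO and WT in either direction, where 0.37% of bins were lower and 0.152% higher in ESCs, and 5.01% were lower and 6.15% higher in MNs. The median log2 ratio over the 10 bins was 0.18 in ESCs and -0.058 in MNs for PATZ1 KO over WT, and -0.34 in WT and -0.54 in PATZ1 KO for MNs over ESCs, beside medians of all bins between -0.012 and -0.00028.

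Inside the block the change from ESCs to MNs differed with distance, and most contacts join DNA within a bin or in neighbouring bins. Together, the 55 pairs held 4738 and 4761 contacts in WT and PATZ1 KO ESCs and 3065 and 2927 in WT and PATZ1 KO MNs, which is 0.973, 1.04, 1.01 and 0.865 times the expected number. Pairs 5 to 9 bins apart were near or above it in ESCs, at 0.930 (0.798 to 1.08) in WT and 1.21 (1.06 to 1.39) in PATZ1 KO, and well under it in MNs, at 0.392 (0.289 to 0.520) and 0.252 (0.172 to 0.356). Contacts over the longer distances of the block were thus 2.37-fold lower in WT MNs and 4.82-fold lower in PATZ1 KO MNs than in the matching ESCs. Nearly all pairs 5 to 9 bins apart also cross the border bin, and most of them belong to the border square. Distance and crossing the border therefore cannot be told apart for these distant pairs. Between the genotypes, these distant pairs had a log2 ratio of 0.38 (0.088 to 0.68) in ESCs and -0.64 (-1.33 to 0.037) in MNs. At 2 to 4 bins the log2 ratio of MNs over ESCs was -0.37 (-0.58 to -0.17) in WT and -0.69 (-0.90 to -0.48) in PATZ1 KO. This set mixes pairs that cross the border bin with pairs inside a side. At 16 and 24 kb, the crossing pairs had -0.55, -0.36 and -2.22 in WT and -0.49, -1.83 and -2.22 in PATZ1 KO. At the same distances inside a side, Hoxa6 had -0.075 and -0.77, and Hoxa9 -0.30 and 0.13. The parts of distance and crossing in the ratio at 2 to 4 bins were not tested. Short distances went up in WT MNs instead, by 0.30 (0.15 to 0.45) for neighbouring bins and 0.099 (0.018 to 0.18) within single bins. In PATZ1 KO these were -0.13 (-0.28 to 0.031) and -0.16 (-0.25 to -0.084).

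Over the whole block the genotypes differed by a log2 ratio of 0.093 (0.035 to 0.15) among ESCs and by one of -0.22 (-0.29 to -0.15) among MNs. The coverage of the bins moved with the second value: relative to the mean bin of chromosome 6, the block bins had 0.957 to 1.29 times the contacts in WT MNs and 0.864 to 1.18 times in PATZ1 KO MNs, against 0.897 to 1.18 and 0.927 to 1.12 in WT and PATZ1 KO ESCs. With the coverage of both bins taken into account the MN ratio was -0.051 (-0.12 to 0.023). All but 1 of the 10 bins had more G and C than 95.8% of the bins of chromosome 6 or over. The part of base composition in the result was not tested.

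**Figure D3:**
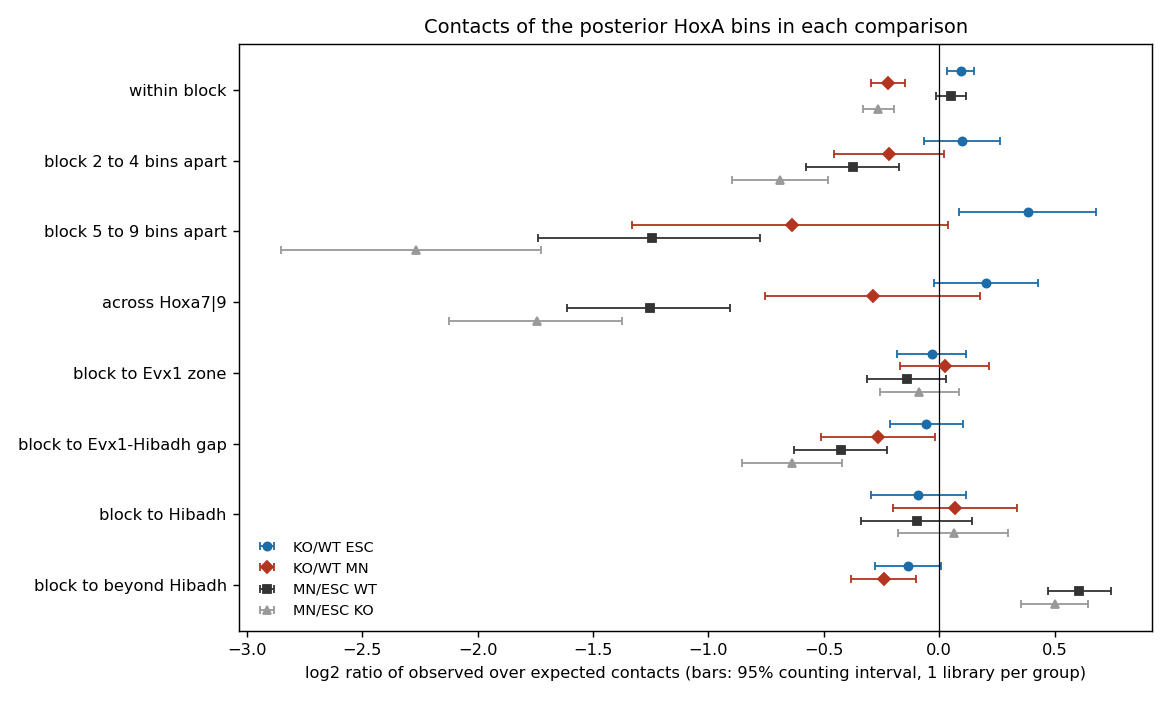
Points give the log2 ratio of observed over expected contacts (x axis) for sets of pairs of the block (y axis) in the 4 comparisons, with bars for the 95% counting interval from 1 library per group. The MN over ESC points of the pairs 5 to 9 bins apart and across Hoxa7|9 lie between -1.25 and -2.27, and those beyond Hibadh at 0.61 and 0.50, while the KO over WT points of the border have bars that include 0. The sets 5 to 9 bins apart and across Hoxa7|9 share most of their pairs.

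Split by gene start, the contacts across the border were lower in MNs. For Hoxa6, Hoxa9, Hoxa10 and Hoxa11 these are pairs of the border square given above, and not separate measurements. The Hoxa9 start, the first gene on the posterior side, had 118 and 109 contacts with the 4 anterior bins in WT and PATZ1 KO ESCs (1.20 and 1.21 times the expected number) and 36 and 32 in WT and PATZ1 KO MNs (0.554 and 0.473). The log2 ratio of MNs over ESCs was -1.12 (-1.70 to -0.57) in WT and -1.35 (-1.97 to -0.77) in PATZ1 KO. For Hoxa10 the corresponding ratios were -1.18 (-1.90 to -0.51) and -1.53 (-2.28 to -0.84), and for Hoxa11 -1.46 (-2.35 to -0.66) and -2.41 (-3.53 to -1.45). Hoxa13, farthest from the border, had 24 and 43 contacts with the anterior bins in WT and PATZ1 KO ESCs and 9 and 4 in WT and PATZ1 KO MNs, and its ratio was -0.77 (-2.06 to 0.39) in WT, an interval that includes 0, and -2.95 (-4.89 to -1.49) in PATZ1 KO. Within the posterior side the Hoxa9 and Hoxa11 starts, 16 kb apart, had 39, 48, 25 and 29 contacts in the same order of libraries, between 0.958 and 1.32 times the expected number in each.

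Hoxa6, on the anterior side, reached the 4 posterior bins with 95 and 114 contacts in WT and PATZ1 KO ESCs and with 41 and 32 in WT and PATZ1 KO MNs. These are 0.968, 1.26, 0.630 and 0.473 times the expected number, higher in both ESC libraries than in both MN libraries. Its MN over ESC ratio was -0.62 (-1.18 to -0.075) in WT and -1.42 (-2.03 to -0.84) in PATZ1 KO. Hoxa7 starts in the border bin itself and reached the posterior bins beyond its neighbour with 75, 86, 46 and 36 contacts in the same order, with a ratio of -0.11 (-0.67 to 0.44) in WT and -0.84 (-1.45 to -0.27) in PATZ1 KO. Toward the anterior bins beyond its neighbour it had 81, 76, 37 and 20 contacts, and there PATZ1 KO MNs were lower than WT MNs by a log2 ratio of -0.95 (-1.81 to -0.12), on few contacts. For these anterior starts, contacts on their own side were thus also lower in PATZ1 KO MNs than in PATZ1 KO ESCs: the MN over ESC ratio toward the anterior bins beyond the neighbour was -1.51 (-2.30 to -0.79) for Hoxa7 and -0.77 (-1.49 to -0.081) for Hoxa6 in PATZ1 KO, and -0.54 (-1.14 to 0.041) and -0.075 (-0.76 to 0.59) in WT. Over all pairs inside a side, single bins included, the MN over ESC ratio in PATZ1 KO was -0.35 (-0.47 to -0.24) before the border and -0.047 (-0.16 to 0.061) beyond it, and in WT 0.065 (-0.048 to 0.18) and 0.20 (0.088 to 0.31). The contacts of the Hoxa7 bin with the whole downstream flank were lower in PATZ1 KO MNs too, 61 in PATZ1 KO against 92 in WT MNs (-0.63, -1.13 to -0.15), and stood at 134 and 127 in ESCs (-0.00093, -0.36 to 0.36).

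Hoxa9, on the other side of the border, had more contacts in PATZ1 KO than in WT MNs in some sets only. Over the whole flank its log2 ratio was 0.23 (-0.10 to 0.56) and with the other block bins 0.055 (-0.22 to 0.33), both with intervals that include 0. With the posterior bins beyond its neighbour the Hoxa9 bin had 35 and 60 contacts in WT and PATZ1 KO MNs, a log2 ratio of 0.72 (0.092 to 1.36), and 65 and 73 in WT and PATZ1 KO ESCs, a ratio of 0.29 (-0.21 to 0.80). Most of this came from 1 pair, the Hoxa9 bin with the bin 52248001 to 52256000 between Hoxa11 and Hoxa13, which had 10 and 31 contacts in WT and PATZ1 KO MNs (log2 ratio 1.58, 0.51 to 2.77) and 26 and 25 in ESCs. It was the pair with the highest KO over WT ratio in MNs among those with at least 20 contacts on average. The Hoxa9 bin also had more contacts with the Evx1 zone in PATZ1 KO MNs, 54 against 29 (0.84, 0.17 to 1.55), where ESCs had 46 in PATZ1 KO against 53 in WT. These were picked out of many pairs and sets, and 1 library per genotype cannot separate them from the spread between cultures.

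Single pairs were compared where they held at least 20 contacts on average. Between PATZ1 KO and WT ESCs 3 of 46 pairs were more than 1.5-fold higher (3.72% of all autosomal pairs of the same distance range) and 1 was lower (3.82%), and in MNs 1 of 28 was higher (7.51%) and 3 were lower (6.7%). Between WT MNs and WT ESCs 3 of 36 were higher (7.07%) and 3 lower (8.31%), and in PATZ1 KO 1 of 35 was higher (4.62%) and 7 were lower (4.92%). The pair with the lowest MN over ESC ratio was in both genotypes that of the bin with Hoxa5 and the Hoxa6 gene body (52200001 to 52208000) and the Hoxa9 bin, 24 kb apart. It held 35 and 37 contacts in WT and PATZ1 KO ESCs and 5 and 6 in WT and PATZ1 KO MNs, a log2 ratio of -2.22 (-3.93 to -0.87) in WT and -2.22 (-3.76 to -0.97) in PATZ1 KO. Next to it in PATZ1 KO came the pair of the Hoxa6 and Hoxa10 starts, with 33 contacts in ESCs and 7 in MNs (-1.83, -3.26 to -0.63), which in WT had 23 and 12 (-0.36, -1.50 to 0.71).

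The pairs named next are likewise ranked among those with at least 20 contacts on average. In ESCs the pair with the lowest KO over WT ratio joined the Hoxa13 bin with the bin 52304001 to 52312000 just before Evx1, 48 kb away, with 29 (WT) and 13 (PATZ1 KO) contacts (-1.04, -2.11 to -0.054). The highest joined the Hoxa4 bin with the Hoxa6 start, with 15 and 27 contacts (0.97, 0.013 to 1.99). In WT MNs over WT ESCs the highest ratio was that of the neighbouring Hoxa10 and Hoxa11 starts, which had 88 contacts in ESCs and 82 in MNs (0.68, 0.22 to 1.13), and 105 and 74 in PATZ1 KO (0.013, -0.44 to 0.46). The lowest KO over WT ratio in MNs was that of the Hoxa4 bin and its neighbour, with 59 (WT) and 34 (PATZ1 KO) contacts (-0.94, -1.60 to -0.31).

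Beyond Hoxa13 lie, in order, Evx1, a homeobox gene of spinal interneurons (52313498 to 52318378), a gene-poor gap, Hibadh, which encodes an enzyme of valine breakdown (52546228 to 52640389), the autophagy receptor gene Tax1bp1 and the zinc finger gene Jazf1. Enhancers that act on Hoxa13 and its neighbours in limbs are known from this flank. The reach of a gene into it followed the place of that gene in the block. Over all 92 downstream bins, the Hoxa6, Hoxa7, Hoxa9, Hoxa10, Hoxa11 and Hoxa13 starts had 0.422, 0.487, 0.629, 0.768, 1.13 and 1.81 times the expected contacts in WT ESCs. In WT MNs the values were 0.419, 0.549, 0.797, 1.15, 1.49 and 1.82 in the same order. The order of the genes held in PATZ1 KO ESCs, with 0.452, 0.487, 0.547, 0.816, 0.985 and 1.60, and in PATZ1 KO MNs but for Hoxa6 and Hoxa7, with 0.365, 0.354, 0.933, 1.03, 1.26 and 1.84. Neighbours from Hoxa6 to Hoxa10 had overlapping intervals in WT ESCs, where Hoxa11 (1.02 to 1.26) lay above Hoxa10 (0.673 to 0.873) and Hoxa13 (1.69 to 1.93) above Hoxa11. In the other libraries, Hoxa6 overlapped Hoxa7 in each, Hoxa7 overlapped Hoxa9 except in PATZ1 KO MNs, and Hoxa13 lay above Hoxa11 in each. Each pair was scaled by its own distance, but the genes lie at different distances from the flank, so the mix of distances and zones differs between them. Of the 92 pairs of a gene, 44 for Hoxa6 and 1 for Hoxa13 were missing from the ESC list and counted as 0. In the MN list 57 and 6 were missing. The part of this in the order of the genes was not tested.

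**Figure D4:**
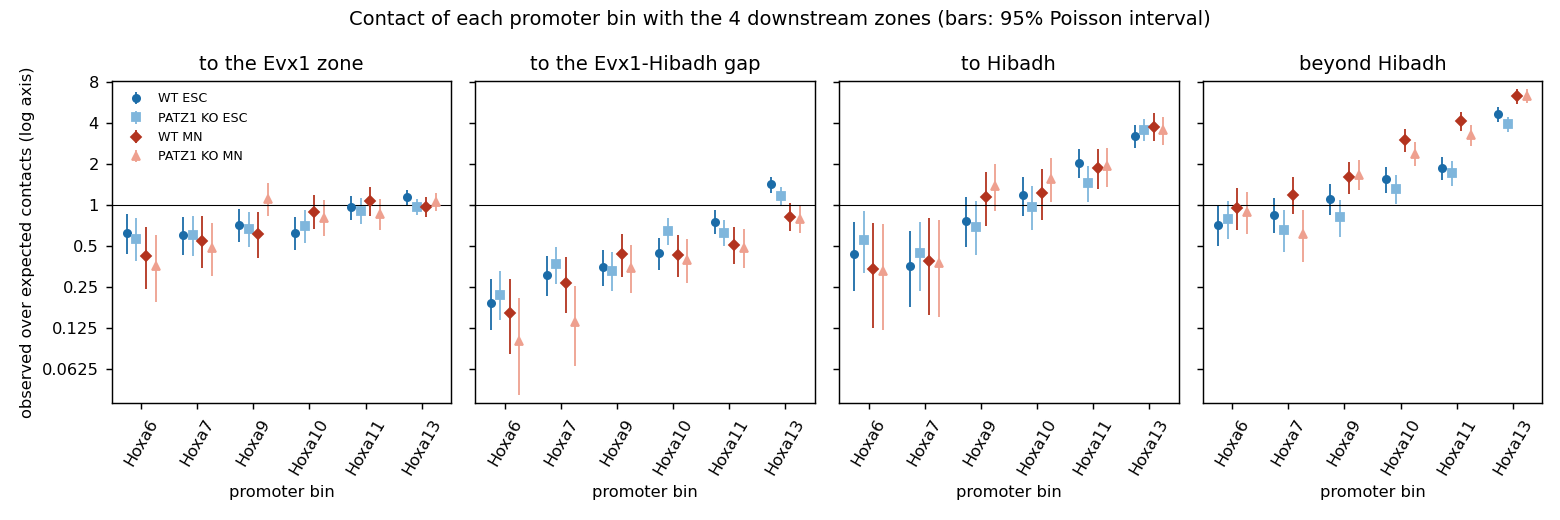
Each panel plots, for the bins that hold the 6 gene starts (x axis), the observed over expected contacts with a zone of the downstream flank (y axis, log scale), with a symbol for each library and bars for the 95% Poisson interval. Hoxa13 has the highest value in the last 3 zones in each library, up to between 3.89 and 6.31 beyond Hibadh, where Hoxa6 lies between 0.712 and 0.949.

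The zones of the flank differed from each other. The block had 0.834 times the expected contacts with the Evx1 zone (52264001 to 52320000) in WT ESCs and 0.816 in their PATZ1 KO counterparts, and 0.756 and 0.768 in WT and PATZ1 KO MNs, with no difference of the whole block between states or genotypes beyond counting error. The 4 bins before the border did differ between the states there, with 129 and 123 contacts in WT and PATZ1 KO ESCs and 27 and 24 in WT and PATZ1 KO MNs, a log2 ratio of MNs over ESCs of -1.54 (-2.19 to -0.93) in WT and -1.79 (-2.49 to -1.15) in PATZ1 KO. For the 5 bins beyond the border it was 0.024 (-0.16 to 0.21) and 0.12 (-0.071 to 0.30). With the gap between Evx1 and Hibadh (52320001 to 52544000) it had 0.537, 0.517, 0.400 and 0.333 times the expected number. The gap was thus depleted in every library, and more in MNs, by a log2 ratio of -0.43 (-0.63 to -0.23) in WT and -0.64 (-0.85 to -0.42) in PATZ1 KO. Of the 280 pairs with the gap, 87 were missing from the ESC list and 163 from the MN list and counted as 0. Of the 28 pairs of the 4 anterior bins with the Evx1 zone, 1 and 12 were missing. The part of this in the MN over ESC ratios was not tested. With PATZ1 KO over WT, the gap had -0.26 (-0.51 to -0.017) for MNs and -0.056 (-0.21 to 0.10) for ESCs. The zones were not rerun with bin coverage. Hibadh (52544001 to 52648000) was contacted above expectation in all 4 libraries, at 1.32, 1.23, 1.23 and 1.29 times.

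Beyond Hibadh (52648001 to 53000000) the block had 860 and 764 contacts in WT and PATZ1 KO ESCs and 893 and 786 in WT and PATZ1 KO MNs, although the MN libraries were the shallower. This is 1.59 (1.49 to 1.70), 1.45 (1.35 to 1.56), 2.42 (2.27 to 2.59) and 2.05 (1.91 to 2.20) times the expected number, higher in both MN libraries than in both ESC libraries. The MN over ESC ratio was 0.61 (0.47 to 0.74) in WT and 0.50 (0.36 to 0.65) in PATZ1 KO, and between the genotypes it was -0.24 (-0.38 to -0.10) in MNs and -0.14 (-0.28 to 0.0071) in ESCs. This zone was not rerun with bin coverage. For the whole flank, bin coverage moved KO over WT from -0.13 to 0.021 in MNs and from -0.071 to -0.067 in ESCs. It moved MNs over ESCs from 0.15 to -0.044 in WT and from 0.090 to 0.044 in PATZ1 KO. As a share of all downstream contacts, this zone held 31.6% (exact binomial, 29.9 to 33.4) and 31.2% (29.4 to 33.1) in WT and PATZ1 KO ESCs, and 48.3% (45.97 to 50.6) and 45.1% (42.7 to 47.5) in WT and PATZ1 KO MNs.

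Among the member starts, those on the posterior side had more of these contacts than Hoxa6 and Hoxa7 in each library. The bin between Hoxa11 and Hoxa13, which holds no member start, lies on the same side. Its contacts beyond Hibadh were not counted separately, so its part in the sum of the block was not tested. For Hoxa13 the contacts beyond Hibadh were 277, 228, 248 and 261, or 4.61, 3.89, 6.22 and 6.31 times the expected number. Hoxa11 had 1.87 and 1.70 times in WT and PATZ1 KO ESCs and 4.11 and 3.25 times in WT and PATZ1 KO MNs. Hoxa10 went from 1.54 and 1.30 times to 2.97 and 2.37, and Hoxa9 from 1.10 and 0.808 to 1.59 and 1.66, where its MN over ESC interval in WT (-0.012 to 1.07) reached 0. Hoxa6, by comparison, stayed between 0.712 and 0.949 times in all 4 libraries, all with intervals that overlap. Hoxa7 stood at 0.845, 0.654, 1.18 and 0.606, lower in PATZ1 KO than in WT MNs by a log2 ratio of -0.96 (-1.76 to -0.20).

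**Figure D5:**
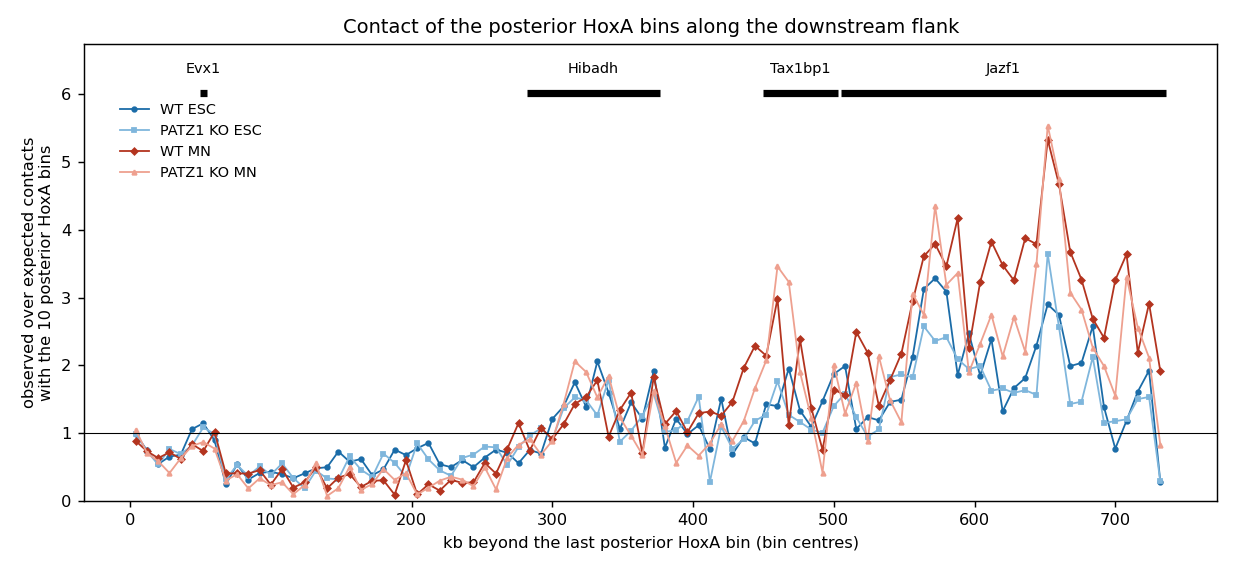
Lines give, for each downstream bin (x axis, kb beyond the last bin of the block), the observed over expected contacts with the 10 bins of the block together (y axis), for each library, and bars at the top mark the genes. Values are mostly under 1 between Evx1 and Hibadh in all 4 libraries, and a bin within Jazf1 reaches 5.33 and 5.54 in WT and PATZ1 KO MNs against 2.90 in WT and 3.65 in PATZ1 KO ESCs.

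The highest value of the flank lay within Jazf1 in each library, in the bin 52912001 to 52920000 in PATZ1 KO ESCs and in both MN libraries and in the bin 52832001 to 52840000 (3.28 times the expected number) in WT ESCs. The first of these bins is 656 kb from the Hoxa13 bin, and the pair they form was the only one of the 845 pairs over 100 kb apart with at least 10 contacts in every library. It held 11 and 16 contacts in WT and PATZ1 KO ESCs and 10 and 11 in WT and PATZ1 KO MNs, which is 10.99 (5.49 to 19.7), 16.4 (9.40 to 26.7), 13.6 (6.53 to 25.1) and 14.6 (7.27 to 26.0) times the expected number. Since the pair was selected for its contacts in every library, its high values in all 4 are given as a description.

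The bins before and beyond the border differed in how much they contacted the flank. The 4 anterior bins had 410 and 411 downstream contacts in WT and PATZ1 KO ESCs and 132 and 122 in WT and PATZ1 KO MNs, or 0.412, 0.435, 0.219 and 0.197 times the expected number. Of their 368 pairs, 191 were missing from the ESC list and 281 from the MN list and counted as 0, and the part of this in the values was not tested. The 5 bins beyond the border had 1.22 and 1.14 times in ESCs and 1.48 and 1.37 times in MNs, with the Hoxa13 bin holding 870 of their 2178 contacts in WT ESCs. Counted so, the MN over ESC ratio was -0.91 (-1.21 to -0.63) in WT and -1.14 (-1.45 to -0.85) in PATZ1 KO for the anterior bins, and 0.28 (0.19 to 0.37) and 0.27 (0.17 to 0.37) for those beyond the border. Taken as a whole, the block had 0.893, 0.850, 0.992 and 0.904 times the expected downstream contacts in the same order of libraries, and its MN over ESC ratios of 0.15 in WT and 0.090 in PATZ1 KO became -0.044 and 0.044 with bin coverage, and 0.066 and -0.048 with library totals, in place of the expected number. Between the genotypes the whole block had -0.071 (-0.15 to 0.0081) in ESCs and -0.13 (-0.23 to -0.038) in MNs, and the MN value became 0.021 with bin coverage and 0.067 with pairs of at least 10 contacts on average.

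Other Hox stretches were set beside the block over pairs at least 2 bins apart, for which its own MN over ESC ratio was -0.53 in WT and -0.96 in PATZ1 KO. Posterior HoxD, Hoxd8 to Hoxd13, had -0.43 (-0.83 to -0.034) and -0.87 (-1.25 to -0.50). Posterior HoxC, Hoxc6 to Hoxc13, had 0.032 (-0.11 to 0.17) and -0.19 (-0.35 to -0.037). Between the genotypes, over pairs at least 2 bins apart, the block had 0.17 (0.024 to 0.31) in ESCs and -0.27 (-0.49 to -0.042) in MNs, posterior HoxD 0.53 (0.23 to 0.84) and 0.091 (-0.37 to 0.55), and posterior HoxC -0.15 (-0.28 to -0.012) and -0.37 (-0.53 to -0.21). Over all pairs posterior HoxD had 0.17 (0.076 to 0.27) and -0.13 (-0.26 to -0.0056), and posterior HoxC -0.22 (-0.28 to -0.16) and -0.35 (-0.42 to -0.27). With 1 library per group, the differences between these stretches were not tested.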

How the data were processed

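The Micro-C kit came from Dovetail, which also mapped the reads and ran HiCcompare for the authors, on WT against PATZ1 KO in each cell state. Per the labels the build is mm10; the aligner is not given in the sources used here. The deposited lists give interaction frequencies, raw contact counts for each pair of 8 kb bins with at least 1 contact in both libraries, and adjusted frequencies, a signal the authors derived from them by normalizing both libraries jointly against distance. The authors' own differences, scores and p-values in the lists were not used.

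Counts were divided by the mean of all possible pairs at the same distance on chromosome 6 in the same library. Ratios carry exact binomial (Clopper-Pearson) intervals and levels exact Poisson intervals, at 95%; they cover counting error only. The code (Python 3.11.15, numpy 2.4.6, scipy 1.17.1) was tested on simulated data. Gene positions are from GENCODE, and sequences from the RefSeq copy of GRCm38.

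Named pairs were the 3 highest and 3 lowest by ratio in each comparison with at least 20 contacts on average, of which those with the clearest ratios are given, and pairs over 100 kb apart with at least 10 contacts in each library. Other pairs and sets were named after their values were seen. The members and lists were chosen with earlier results of these data known. Groups were taken from the labels. Alternatives were scaling by library totals, the adjusted frequencies, other selections of pairs, bin coverage, autosomal expectation and other squares. A comparison with 1 other stretch is not reported here.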

Additional observations from a re-analysis of the deposited data

Results flagged for a closer look

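The PATZ1 KO over WT ratio went opposite ways in the cell states, with counting intervals that exclude 0 in both, for the pairs inside the block (log2 0.093 in ESCs and -0.22 in MNs), for the contacts of the Hoxa6 start with the other block bins (0.28 and -0.36), and for contact across the bin with Hoxa5 (0.31 and -0.45) and across the Hoxa9 bin (0.36 and -0.46). These sets share pairs of bins. With bin coverage the MN value inside the block was -0.051 (-0.12 to 0.023), which includes 0. The other flagged sets were not rerun with bin coverage. Their MN intervals end close to 0 for the bin with Hoxa5 (-0.83 to -0.066) and the Hoxa9 bin (-0.89 to -0.027). Over all their pairs, posterior HoxD had 0.17 in ESCs and -0.13 in MNs, and posterior HoxC -0.22 and -0.35. Each state has 1 library per genotype, and the difference between the states was not tested.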

How the results depend on the processing

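No paired analysis was possible because the groups share only replicate number 1, with 1 library each; an additive fit of genotype and cell state over the 4 libraries was not run. Of 96 alternative values, 25 moved by more than the counting interval of the value given in the report or, for counts of pairs, by over 1.5 times, and 4 reversed a value whose interval excludes 0. The border ratios kept their direction in every alternative run: MNs over ESCs ranged from -1.43 to -0.69 in WT and from -1.77 to -1.22 in PATZ1 KO, lowest in size with the border bin counted with the Hoxa9 side (-0.69 in WT, -1.22 in PATZ1 KO) and, in PATZ1 KO, -1.31 with a square of 2 by 2 bins. KO over WT at the border ranged from 0.081 to 0.25 in ESCs and from -0.45 to -0.058 in MNs; its interval left 0 with the expectation from all autosomes in ESCs (0.25, 0.028 to 0.48) and with the border bin counted with the Hoxa9 side in MNs (-0.45, -0.79 to -0.12). Leaving out single and neighbouring bins could not change the border, whose square holds none. Inside the block, leaving out single and neighbouring bins gave -0.53 (MNs over ESCs in WT), -0.96 (in PATZ1 KO) and 0.17 (KO over WT in ESCs). Bin coverage gave -0.051 (-0.12 to 0.023) for KO over WT in MNs and -0.12 for MNs over ESCs in WT, and the adjusted frequencies gave -0.12 for KO over WT in MNs. Downstream, KO over WT in MNs reversed with pairs of at least 10 contacts on average (0.067) and with bin coverage (0.021). MNs over ESCs in WT reversed with bin coverage (-0.044) and moved to 0.0028 with pairs of at least 10 contacts and to 0.27 with pairs listed in both states; in PATZ1 KO it reversed with library totals (-0.048) and moved to 0.26 with pairs listed in both states. The cause of these changes was not tested. At 2-fold, some counts of single pairs changed, over the same 46, 28, 36 and 35 pairs in the 4 comparisons. KO over WT became 0 higher in ESCs and 0 lower in MNs. MNs over ESCs became 0 higher and 1 lower in WT, and 0 higher and 3 lower in PATZ1 KO. With at least 50 contacts, 20, 19, 20 and 19 pairs were left in the 4 comparisons. Of these, 0 were higher and 0 lower, 0 higher and 1 lower, 2 higher and 0 lower, and 0 higher and 2 lower. No share of all autosomal pairs was computed for either setting, so whether these counts exceed the usual rate was not tested. Few contacts per pair, fewer still in the shallower MN libraries, limit what single pairs can show.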
